A study of Homo sapiens with 4 samples.

Results

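MicroRNAs with high catalogue numbers, 50 of the 2656 mature miRNAs listed, were followed through an RNA pull-down experiment on circHIPK3. A miRNA was taken when its miR number was 3000 or more and any 1 of the 4 libraries held 20 or more reads of it; both arms of miR-3184 were left out. Of the 1497 listed miRNAs numbered 3000 or more, 50 met this rule, 1445 fell under the read minimum and 962 had no read in any library. The members were thus selected on the read counts of these same libraries, so the levels that carried a miRNA past the minimum are described here without a test. Nearest inside the minimum were miR-4676-3p with a highest count of 20, miR-3157-5p with 23, and miR-5699-5p and miR-6862-5p with 24 each. Nearest outside it were miR-3126-3p with 19 and miR-6873-3p and miR-7108-5p with 18 each.

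All libraries came from RD cells, an established line of human embryonal rhabdomyosarcoma (a tumour that resembles immature skeletal muscle), grown without treatment. CircHIPK3 is a circular RNA formed from exon 2 of HIPK3 (chr11:33286413-33287511, plus strand, GRCh38, 1099 nt), and the linear HIPK3 RNA carries the same exon. Native lysate was captured with biotinylated antisense probes and streptavidin beads: the EVEN library used 1 set of probes to exon 2, the ODD library used another set, and the control library used probes to the bacterial LacZ mRNA. The remaining library, called INPUT, held RNA labelled as input of the same line. Each group was 1 library from 1 biological replicate, so no difference below has a replicate check, and every interval covers counting error only. The comparisons ask which small RNAs came down with the exon 2 probes beyond the control probes.

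MicroRNAs are short RNAs that guide Argonaute proteins to target transcripts, mainly through the seed, bases 2 to 8 from the 5′ end. Most are cut from hairpins by Drosha in the nucleus and Dicer in the cytoplasm; mirtrons are short introns whose hairpin ends are made by splicing in place of Drosha. Catalogue numbers follow the order of registration, so high numbers belong to miRNAs that came late, mostly out of deep sequencing, and many of them are scarce or lie on other transcripts.

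RefSeq (GRCh38.p14) gave a mature sequence for 46 of the 50; miR-3616-3p, miR-4326, miR-6735-5p and miR-6844 are given by name only. Sequences are written 5′ to 3′ with the seed in capitals. The 6 members that reached 20 reads in the LacZ library alone are shown first, because they are among the extremes of 3 comparisons and all are rich in G and C:
miR-6820-5p: uGCGGCAGagcugggguca
miR-6125: gCGGAAGGcggagcggcgga
miR-6862-5p: cGGGCAUGcugggagagacuuu
miR-6789-3p: cGGCGCCCgugucuccuccag
miR-4745-3p: uGGCCCGGcgacgucucacgguc
miR-4440: uGUCGUGGggcuugcuggcuug

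The next 6 had their highest level in a pull-down with exon 2 probes. They are miR-3177-3p and miR-4741 in ODD and the other 4 in EVEN, and they share no seed:
miR-3177-3p: uGCACGGCacuggggacacgu
miR-4741: cGGGCUGUccggaggggucggcu
miR-7706: uGAAGCGCcugugcucugccgaga
miR-3187-3p: uUGGCCAUggggcugcgcgg
miR-6807-5p: gUGAGCCAguggaauggagagg
miR-3173-5p: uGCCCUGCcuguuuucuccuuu

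Next, 3 members are shown with the older miRNA that is read from the opposite strand of the same locus or of a copy of it. In each pair the longest stretch that is reverse complementary covers most of both sequences: 20 nt for miR-3074-5p with miR-24-3p, 22 nt for miR-3065-5p with miR-338-3p, and 24 nt for miR-3529-3p with miR-7-5p:
miR-3074-5p: gUUCCUGCugaacugagccag
miR-24-3p: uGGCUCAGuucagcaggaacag
miR-3065-5p: uCAACAAAaucacugaugcugga
miR-338-3p: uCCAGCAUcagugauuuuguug
miR-3529-3p: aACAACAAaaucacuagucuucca
miR-7-5p: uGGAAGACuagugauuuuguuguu

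For contrast, 4 members whose level was highest in INPUT are shown, the abundant miR-4521, the A- and U-rich miR-3613-5p and miR-3611, and miR-3684, which had no read in any pull-down:
miR-4521: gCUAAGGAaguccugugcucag
miR-3613-5p: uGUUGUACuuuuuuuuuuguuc
miR-3611: uUGUGAAGaaagaaauucuua
miR-3684: uUAGACCUaguacacguccuu

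Totals of miRNA reads were 2987858 for INPUT and 98950, 426450 and 425395 for EVEN, ODD and LacZ. Levels below are in CPM, the count of a miRNA over the library's total miRNA reads, scaled to a common library size. Where 4 values follow each other without library names, they stand in the order INPUT, EVEN, ODD, LacZ. A count of 0 allows a level of up to 1.00 CPM for INPUT, 30.3 for EVEN, and about 7 for ODD (7.03) and LacZ (7.05). The 20-read minimum stands for 6.69, 202, 46.9 and 47.0 CPM in that order, so a level that passes in INPUT can be invisible in EVEN. Skeletal muscle miRNAs, 4 of 4 detected, took 6.21% of INPUT reads, 10.4% of EVEN, 3.5% of ODD and 6.7% of LacZ. In the blood list 5 of 6 were detected, at a summed 40.8 to 212 CPM, with the red-cell miR-451a at 0 throughout. The epithelial list, 3 of 3 detected, summed to 97.1 CPM in INPUT and 273, 856 and 567 in EVEN, ODD and LacZ, and its part in the results below was not tested. Most of the pull-down sums was miR-205-5p, with 1.34 CPM in INPUT and 202, 832 and 489 in EVEN, ODD and LacZ. The log2 ratio of LacZ to INPUT was 8.35 for it, 0.36 for miR-200c-3p and -0.68 for miR-141-3p, so the list did not rise as a whole.

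The 50 members together were a small share of every library. They took 0.552% of INPUT reads (95% exact Clopper-Pearson interval 0.544 to 0.561), 0.453% of EVEN (0.412 to 0.497), 1.05% of ODD (1.02 to 1.08) and 0.719% of LacZ (0.694 to 0.745). One member, miR-3074-5p, supplied 64.6% of these reads in INPUT, 55.8% with EVEN, 86.0% with ODD and 61.8% with LacZ. Without it the shares were 0.196%, 0.200%, 0.148% and 0.275%, so ODD moved from the highest share to the lowest and LacZ became the highest.

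Of the 50, 48 were detected in INPUT, 28 with EVEN, 34 with ODD and 45 with LacZ. The minimum of 20 reads was met in INPUT by 41, in EVEN by 5, in ODD by 9 and in LacZ by 22, and in all 4 libraries by 4. It was met in INPUT alone by 25, in LacZ alone by 6, in ODD alone by 3 and in EVEN alone by 0. Neither exon 2 probe set gave a read for 15 members. Of all 483 listed miRNAs with 20 reads in any library, 461 met the minimum in INPUT, 195 in ODD and 284 in LacZ. Shares over all miRNAs were not computed for the other counts. The libraries differ in depth, so none of these counts is read as a trait of the members. The highest CPM fell in INPUT for 22 members, EVEN for 9, ODD for 4 and LacZ for 15. LacZ thus held the highest level of 30.0% of the members, against 20.9% of the 431 miRNAs numbered under 3000 that had 20 reads, and INPUT that of 44.0% against 53.4%. The 15 include all 6 members that met the minimum in LacZ alone and so had to be high there. The LacZ share therefore follows in part from the read minimum and is not read as a trait of the members.

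**Figure D1:**
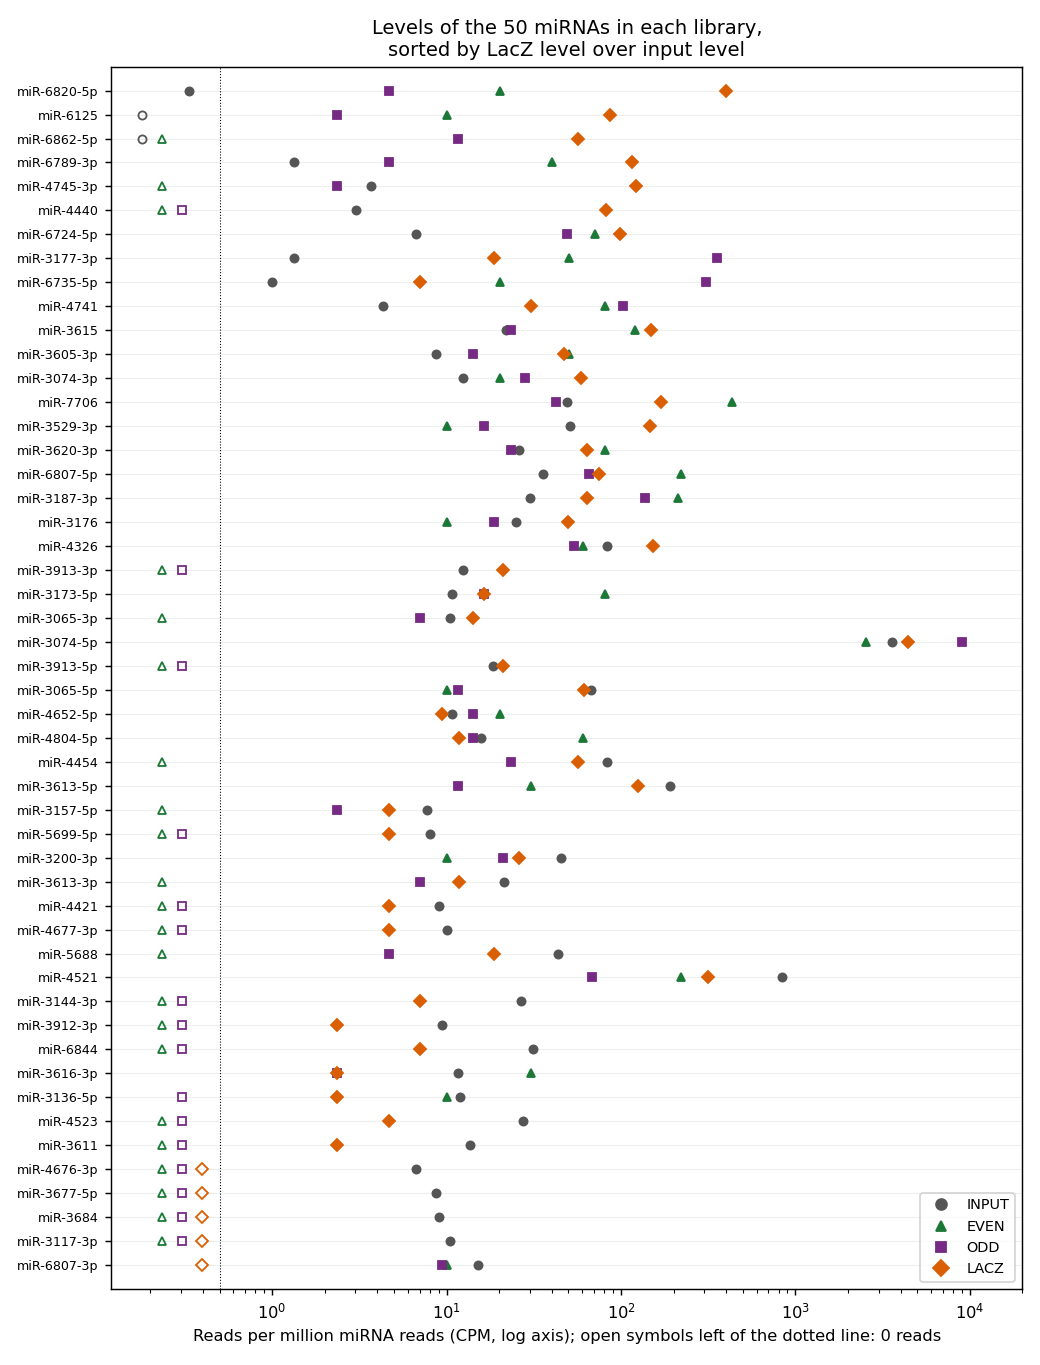
Level of each of the 50 miRNAs in the 4 libraries, in CPM on a log axis, sorted by the LacZ level over the input level; open symbols left of the dotted line stand for 0 reads. miR-6820-5p at the top has 402 CPM in LacZ and 0.335 in INPUT, and the bottom 5 have no LacZ read.

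The 6 members that met the read minimum in LacZ alone are described next. For miR-6820-5p the counts were 1 read in INPUT and 2, 2 and 171 in EVEN, ODD and LacZ, or 0.335, 20.2, 4.69 and 402 CPM. For miR-6125 they were 0, 1, 1 and 37 reads, and for miR-6789-3p 4, 4, 2 and 49. LacZ held the highest level of each. For miR-6789-3p the 4 EVEN reads stand for 40.4 CPM beside 115 in LacZ, so EVEN was 2.85-fold lower, with an interval of 1.04 to 10.9. The counts of miR-4745-3p were 11, 0, 1 and 52, those of miR-4440 were 9, 0, 0 and 35, and those of miR-6862-5p were 0, 0, 5 and 24. Together the 6 summed to 8.37 CPM in INPUT and 70.7, 25.8 and 865 in EVEN, ODD and LacZ. Having passed the minimum through LacZ alone, they had to be high there.

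A fold below is the ratio of a miRNA's shares of reads in 2 libraries, with a 95% exact interval. A miRNA with at least 20 reads in either library was tested in the sense that its log2 ratio, with 0.5 added to each count, was compared with a threshold of 2-fold. Against INPUT, the LacZ share of miR-6789-3p was 86.0-fold higher (31.5 to 328), that of miR-4745-3p 33.2-fold (17.1 to 70.6) and that of miR-4440 27.3-fold (12.9 to 64.6). With 1 read in INPUT, miR-6820-5p was 1201-fold higher, with an interval of 213 to 47713. With no INPUT read, miR-6125 was at least 86.6-fold and miR-6862-5p at least 56.2-fold higher, against a floor of 3 counts.

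In LacZ against INPUT, 16 of 47 members tested were higher and 14 lower at 2-fold, that is 34.0% and 29.8%. Over all 475 miRNAs tested, 18.1% were higher and 34.3% lower. The median log2 ratio was -0.11 over the members and -0.44 over all tested. Where the minimum was asked of INPUT only, which leaves out the 6, 10 of 41 members were higher (24.4%) and 14 lower (34.1%), with 15.6% and 35.4% over all 461 miRNAs, and both medians were -0.48. The split of 16 higher and 14 lower became 11 and 22 under TMM scaling, 13 and 17 under median-of-ratios factors, 19 and 13 without the 10 most abundant miRNAs, and 19 and 11 when centred on the median of all tested. For all 475 miRNAs, TMM gave 63 higher and 246 lower. In the same order, the other settings gave 15.4% higher and 40.8% lower, 22.6% and 27.3%, and 24.4% and 23.4% of all tested.

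These 6 have 59.1% to 80.0% G and C, with a median of 71.2%. The 25 members that met the minimum in INPUT alone ranged from 23.8% to 71.4%, with a median of 42.9% over the 23 with a sequence. Across 44 members the log2 ratio of LacZ to INPUT went with GC content at Pearson's r = 0.52 and Spearman's rho = 0.50. All points share the same 2 libraries, and the largest ratios rest on few INPUT reads. Among the 15 members with 20 reads in both libraries r was 0.54 and rho 0.41, and among 388 miRNAs numbered under 3000 r was 0.37 and rho 0.42. The relation was therefore also present outside the late numbers.

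At 60% GC or more, the median log2 ratio of LacZ to INPUT was 1.79 over 15 members, and under 45% it was -0.77 over 16. The first set holds 5 of the 6 members that passed through LacZ alone, which had to be high there. With 20 reads in both libraries, the medians were 1.3 over 7 members and -0.11 over 3. The GC-rich side had exceptions: miR-4523, with 71.4% GC, had 82 reads in INPUT and 0, 0 and 2 in EVEN, ODD and LacZ. On the GC-poor side, miR-3529-3p, with 33.3% GC, had 51.2 CPM in INPUT and 146 in LacZ. For the other pull-downs against INPUT, r was 0.49 over 38 members in EVEN and 0.59 over 40 in ODD. Among lower-numbered miRNAs r was 0.49 over 385 in EVEN and 0.46 over 386 in ODD. Only 5 of 41 members tested in EVEN and 6 of 44 in ODD had 20 reads in both libraries. The ODD set also holds the GC-rich miR-3177-3p and miR-4741, which passed the minimum through ODD alone and had to be high there. Against LacZ, r was 0.11 over 21 members in EVEN and 0.08 over 23 in ODD, beside 0.31 over 244 lower-numbered miRNAs in EVEN and 0.22 over 252 in ODD. As a class the members were richer in GC, with a median of 54.5% against 47.6% for the 393 lower-numbered miRNAs with a sequence, and 37.0% against 14.5% had at least 60% GC.

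**Figure D2:**
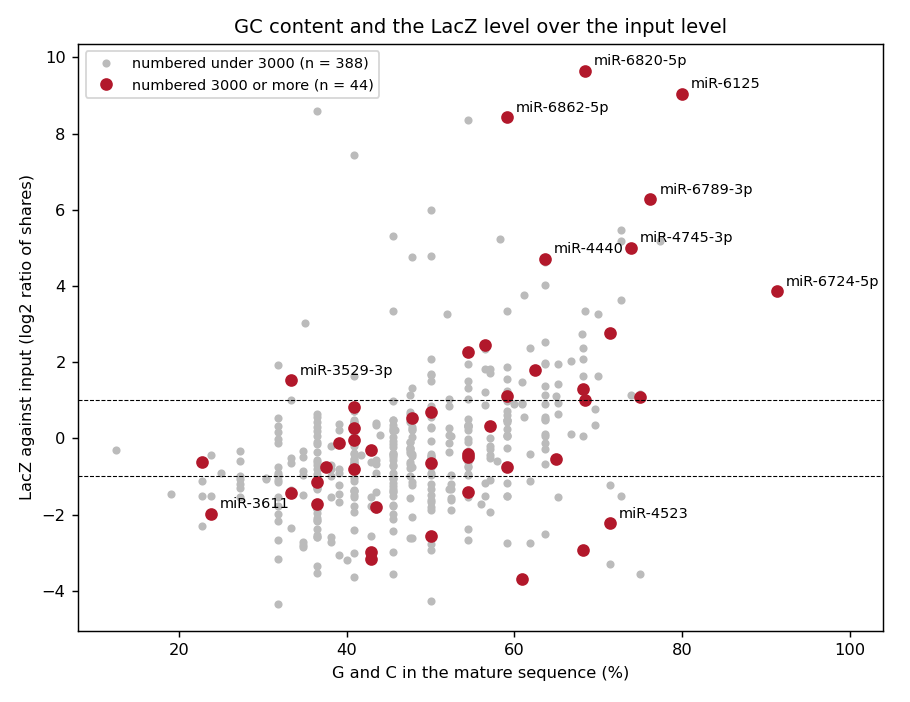
Log2 ratio of LacZ to INPUT shares against the GC content of the mature sequence, for 44 members (red) and 388 lower-numbered miRNAs (grey); dashed lines mark 2-fold. The points of both sets lean upward to the right, and miR-4523 at 71.4% GC lies below the lower line.

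Among the ODD-high members, miR-3177-3p and miR-6735-5p had nearly all their reads in 1 library. The counts of miR-3177-3p, from an intron of MAPK8IP3 (chr16:1734985-1735066, plus strand), a scaffold protein of JNK signalling and axonal transport, were 4 in INPUT and 5, 152 and 8 in EVEN, ODD and LacZ. For miR-6735-5p they were 3, 2, 130 and 3. ODD was high and the other 3 libraries low in both cases. The counts of miR-4741, from the 5′ UTR exon of RBBP8, a DNA end resection factor, were 13, 8, 44 and 13, where EVEN at 80.8 CPM came close to ODD at 103.

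Against LacZ, the ODD share of miR-6735-5p was 43.2-fold higher (14.5 to 212), that of miR-3177-3p 19.0-fold (9.38 to 44.7) and that of miR-4741 3.38-fold (1.79 to 6.83). These 3 passed the minimum through ODD alone, so they had to differ. The other members higher with ODD were miR-3187-3p and miR-3074-5p, 2.18-fold (1.36 to 3.58) and 2.04-fold (1.93 to 2.15). In all, 5 of 25 members tested were higher (20%) and 18 lower (72.0%), beside 13.0% higher and 70.3% lower over all 300 miRNAs. The medians were -1.66 and -1.79 on the log2 scale. The split of 5 higher and 18 lower became 6 and 8 with TMM or median-of-ratios factors (for all 300 miRNAs 66 and 103 with TMM) and 6 and 7 when centred, since those scalings move the median of all miRNAs from -1.79 to -0.50, -0.35 and 0. Of all 300 miRNAs, 22.7% were higher and 32% lower with median-of-ratios factors, and 25.7% and 23.7% when centred. With the minimum asked of LacZ only, 2 of 22 members were higher (9.09%) and 18 lower (81.8%), beside 8.10% and 74.3% over all 284 miRNAs. The 18 include the 6 members that passed the minimum through LacZ alone.

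The exon 2 probe sets were also compared in miR-3177-3p and miR-6735-5p, which passed the read minimum through ODD alone and had to be high there. EVEN had 5 and 2 reads of miR-3177-3p and miR-6735-5p, and its share was 7.05-fold lower than ODD's for the first (2.96 to 22.0) and 15.1-fold lower for the second (4.09 to 126). Of 10 members tested in EVEN against ODD, 3 were higher and 3 lower, 30.0% each, beside 37.9% higher and 18.2% lower over all 203 miRNAs. The 3 lower include miR-3177-3p and miR-6735-5p, so the share lower follows in part from the selection and is not read as a trait of the members. With TMM or median-of-ratios factors 1 of the 10 was higher and 4 lower, and of all 203 miRNAs 9.85% were higher and 31.5% lower with TMM.

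In EVEN, miR-7706 stood highest after miR-3074-5p. It is read from a 5′ UTR or noncoding exon of AKAP13 (chr15:85380596-85380662, plus strand), an anchor of protein kinase A. Its counts were 147 in INPUT and 43, 18 and 72 in EVEN, ODD and LacZ, or 49.2, 435, 42.2 and 169 CPM. EVEN was high and ODD lay close to INPUT. The EVEN share was 2.57-fold higher than that of LacZ (1.72 to 3.8) and 10.3-fold higher than that of ODD (5.81 to 19.0), while ODD was 4.01-fold lower than LacZ (2.37 to 7.14). Under TMM and median-of-ratios scaling the log2 ratio of ODD to LacZ went from -1.97 to -0.69 and -0.53, which ends that call, and that of EVEN to ODD from 3.34 to 2.32 and 2.30.

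For miR-6807-5p, from a short intron of TRIM28, a corepressor that silences transposable elements, the counts were 106, 22, 28 and 32, or 35.5, 222, 65.7 and 75.2 CPM. EVEN was 2.96-fold higher than LacZ (1.64 to 5.25), and ODD was 1.15-fold lower with an interval of 0.668 to 1.97, which includes 1. A smaller count stood behind miR-3173-5p, read from an intron of DICER1, the gene of the Dicer enzyme. It had 32, 8, 7 and 7 reads, and its EVEN share was 7.55-fold that of INPUT (3.01 to 16.7).

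In EVEN against LacZ, 3 of 22 members tested were higher (13.6%) and 13 lower (59.1%), beside 9.69% and 51.2% over all 289 miRNAs. The medians were -1.30 and -1.06 on the log2 scale. All 22 had the minimum in LacZ, and 17 of them did not have it in EVEN. The 13 include the 6 members that met it in LacZ alone of all libraries. When centred on the median of all tested, 5 were higher and 7 lower, beside 26.3% and 25.3% over all 289. With 5 reads added to each count in place of 0.5, 3 were lower in place of 13, and the number higher was again 3. Over all 289 that setting gave 30.1% lower and 11.1% higher.

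The EVEN and ODD ratios share the LacZ library, so its reads enter both. Of 22 members tested in both, miR-3187-3p alone was higher at 2-fold with each probe set, beside 3.17% over all 284 miRNAs. Its counts were 90 in INPUT and 21, 59 and 27 in EVEN, ODD and LacZ, or 30.1, 212, 138 and 63.5 CPM, so both exon 2 pull-downs stood above both other libraries. The fold over LacZ was 3.34 (1.80 to 6.14) in EVEN and 2.18 (1.36 to 3.58) in ODD. EVEN exceeded ODD 1.53-fold with an interval of 0.885 to 2.56. With 5 reads added to each count its log2 ratio went from 1.75 to 1.80 in EVEN and from 1.11 to 1.00 in ODD, where it fell just short of 2-fold, and 0 members were higher in both. Under TMM scaling, median-of-ratios scaling or centring, 2 members were higher in both, miR-3187-3p and miR-6807-5p. MIR3187 lies at chr19:813584-813653 on the plus strand, in no annotated host on that strand.

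Of the 22, 13 were lower at 2-fold with both probe sets, or 59.1%, beside 46.5% over all 284. The count was 7 under TMM scaling, 6 under median-of-ratios factors and 5 when centred. The share over all 284 was computed for the main setting only. All 6 of the LacZ-high members are among the 13. They passed the read minimum through LacZ alone, the denominator of both ratios, so their selection adds to the 59.1%. The excess over 46.5% is therefore not read as a trait of the members. With EVEN, miR-6820-5p was 19.9-fold lower than in LacZ (5.42 to 166) and with ODD 85.7-fold lower (23.4 to 713). No EVEN or ODD read of miR-4440 was found, which makes it at least 2.71-fold lower with EVEN and at least 11.7-fold lower with ODD. For miR-4745-3p the EVEN bound was at least 4.03-fold lower, and the single ODD read made it 52.1-fold lower with an interval of 8.95 to 2098. The other 7 were miR-3065-5p, miR-3074-3p, miR-3176, miR-3529-3p, miR-3613-5p, miR-4326 and miR-4454.

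**Figure D3:**
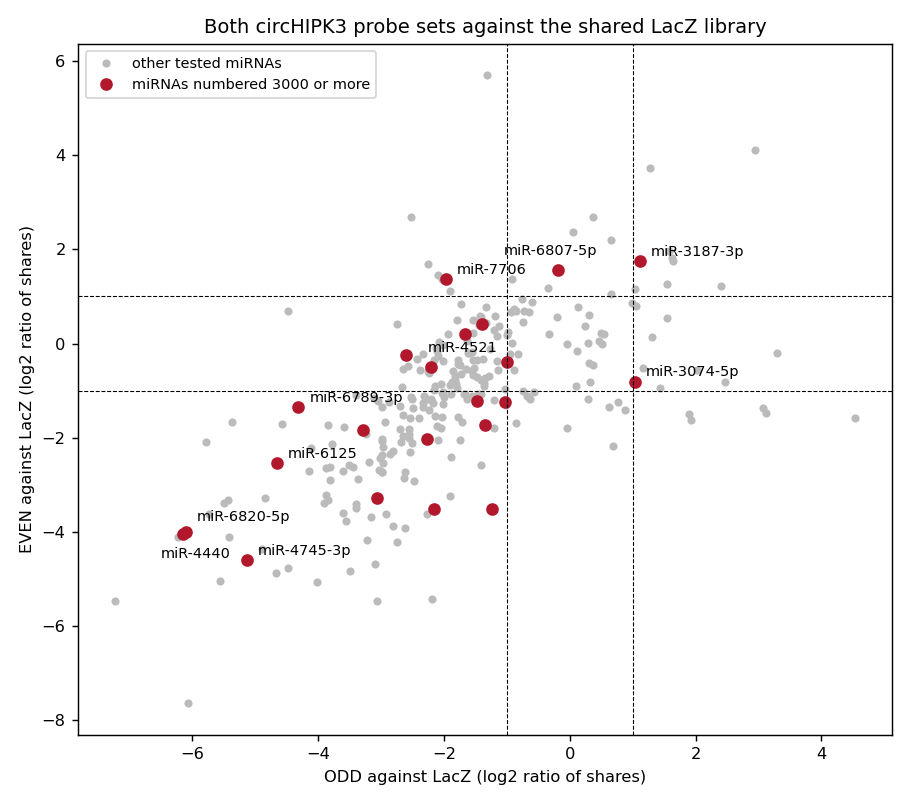
Log2 ratio to LacZ with the EVEN probes (vertical) against that with the ODD probes (horizontal) for the 22 members tested in both (red) and the other tested miRNAs (grey); dashed lines mark 2-fold, and both axes share the LacZ library. miR-3187-3p alone among the red points lies past 2-fold on both axes in the upper right; miR-7706 lies at 1.37 with EVEN and -1.97 with ODD.

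Of the 46 members with a sequence, 7 lie opposite another miRNA hairpin (15.2%), against 20 of 393 lower-numbered miRNAs (5.09%). The strand setting of the counting, not given in the sources used here, decides whether this matters: without strand, reads of these miRNAs and of their partners cannot be told apart. The 7 include both arms of miR-3065, miR-3074 and miR-3913, so they are not separate loci. Lower-numbered miRNAs were counted by arm too. MIR3074 lies at chr9:95086014-95086094 on the minus strand, opposite MIR24-1. Counts of miR-3074-5p were 10663 in INPUT and 250, 3858 and 1890 in EVEN, ODD and LacZ, and those of miR-24-3p, a widely expressed miRNA, were 32884, 530, 11813 and 4367. Both were highest in ODD and lowest in EVEN by CPM.

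Of the summed reads of the pair, miR-3074-5p took 24.5% in INPUT (24.1 to 24.9), 32.1% in EVEN (28.8 to 35.5), 24.6% in ODD (23.9 to 25.3) and 30.2% in LacZ (29.1 to 31.4). The intervals of INPUT and ODD overlap, as do those of EVEN and LacZ, and the first pair lies below the second. Against LacZ, ODD was 2.04-fold higher for miR-3074-5p (1.93 to 2.15) and 2.70-fold higher for miR-24-3p (2.61 to 2.79). EVEN was 1.76-fold lower (1.54 to 2.01) and 1.92-fold lower (1.75 to 2.10) for the same miRNAs. Both miRNAs of the pair lay on the same side of LacZ with each probe set.

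MIR3529 (chr15:88611847-88611924, minus strand) lies opposite MIR7-2, one of the genes of miR-7-5p. Counts of miR-3529-3p were 153, 1, 7 and 62, beside 33324, 295, 681 and 9503 for miR-7-5p. The share of miR-3529-3p in the pair was 0.457% in INPUT (0.388 to 0.535) and 0.648% in LacZ (0.497 to 0.830), where the intervals overlap, and it rested on 1 read in EVEN. Against LacZ, EVEN was 14.4-fold lower for miR-3529-3p (2.49 to 579) and 7.49-fold lower for miR-7-5p (6.67 to 8.44). ODD was 8.88-fold lower (4.06 to 23.0) and 14.0-fold lower (12.9 to 15.1).

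For miR-3065-5p, opposite miR-338-3p on chromosome 17, the counts were 201, 1, 5 and 26, beside 1125, 2, 15 and 57 for its partner. Its share of the pair was 15.2% in INPUT (13.3 to 17.2) and 31.3% in LacZ (21.6 to 42.4), with no overlap. This member also shares a run of 13 nt with miR-3529-3p on the same strand (see the sequences of both above). The 2 hairpins of miR-3913 lie on opposite strands of chromosome 12 and overlap almost end to end, so that miR-3913-5p and miR-3913-3p are reverse complements over 22 nt. They had 55 and 37 reads in INPUT, none in EVEN or ODD, and 9 each in LacZ.

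**Figure D4:**
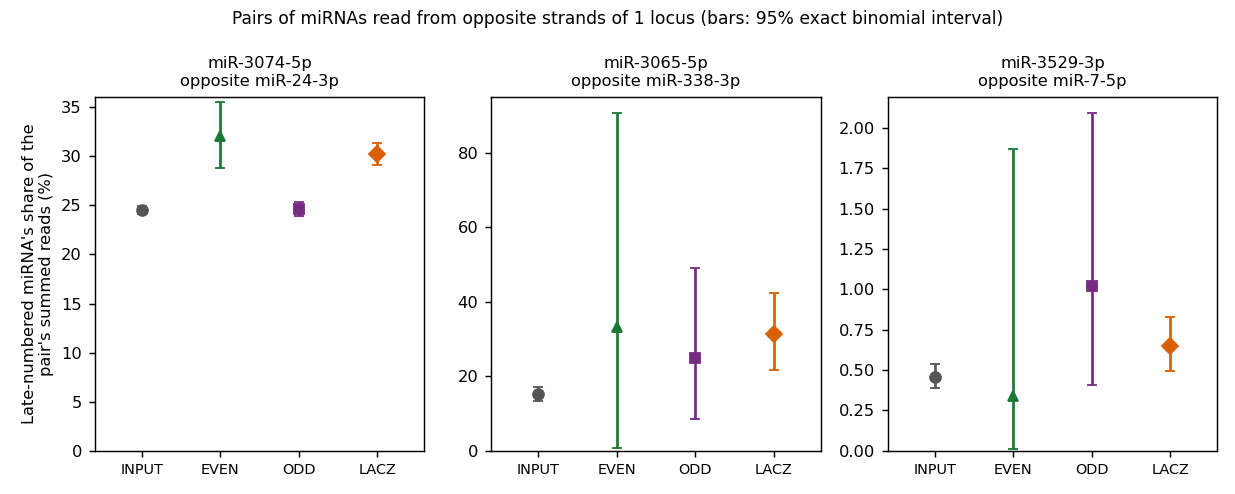
Share of a late-numbered miRNA in the summed reads of itself and the miRNA on the opposite strand, in percent, for 3 pairs in the 4 libraries; bars are 95% exact binomial intervals. For miR-3074-5p, INPUT and ODD sit at 24.5% and 24.6% and EVEN and LacZ at 32.1% and 30.2%; the EVEN points of the other pairs rest on 1 read.

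By place in the genome (GENCODE 29), 24 of the 46 lay in introns, 7 overlapped exons and 15 had no host on their strand. That is 52.2%, 15.2% and 32.6%, against 64.6%, 17.6% and 17.8% of the lower-numbered miRNAs. The hairpin of 7 members ended within 5 nt of a splice site of the host (15.2%), against 9 of 393 (2.29%). Both ends did so for 4, as in a mirtron: miR-6807-5p and miR-6807-3p in TRIM28, miR-3620-3p in ARF1, a GTPase of Golgi traffic, and miR-6789-3p in PLEKHJ1. One end did so for miR-4745-3p in PTBP1, a splicing repressor, miR-6820-5p in POLR2F, a subunit shared by the RNA polymerases, and miR-6862-5p in EIF3C and its copy EIF3CL.

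The 3p arms among these that lie at an acceptor, 3 of 3, end in AG, the bases that close an intron, as in these sequences:
miR-6807-3p: cACUGCAUuccugcuuggcccag
miR-3620-3p: uCACCCUGcaucccgcacccag
miR-6789-3p: cGGCGCCCgugucuccuccag

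The 7 summed to 82.0 CPM in INPUT and 374, 122 and 835 in EVEN, ODD and LacZ. LacZ held the highest level of 4, namely miR-4745-3p, miR-6789-3p, miR-6820-5p and miR-6862-5p, and all of these are in the LacZ-high group described above. These 4 passed the read minimum through LacZ alone and had to be high there. The LacZ sum therefore follows in large part from the selection and is not read as a trait of splice-site members. The highest level of miR-3620-3p and miR-6807-5p was in EVEN and that of miR-6807-3p in INPUT. Of the 2 arms of the TRIM28 intron, miR-6807-5p was 70.2% of their summed reads in INPUT (62.2 to 77.4) and 100% of 32 reads in LacZ (89.1 to 100). In EVEN it was 95.7% of 23 reads (78.1 to 99.9) and in ODD 87.5% of 32 (71.0 to 96.5). The ODD interval overlaps that of INPUT, and those of EVEN and LacZ do not.

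**Figure D5:**
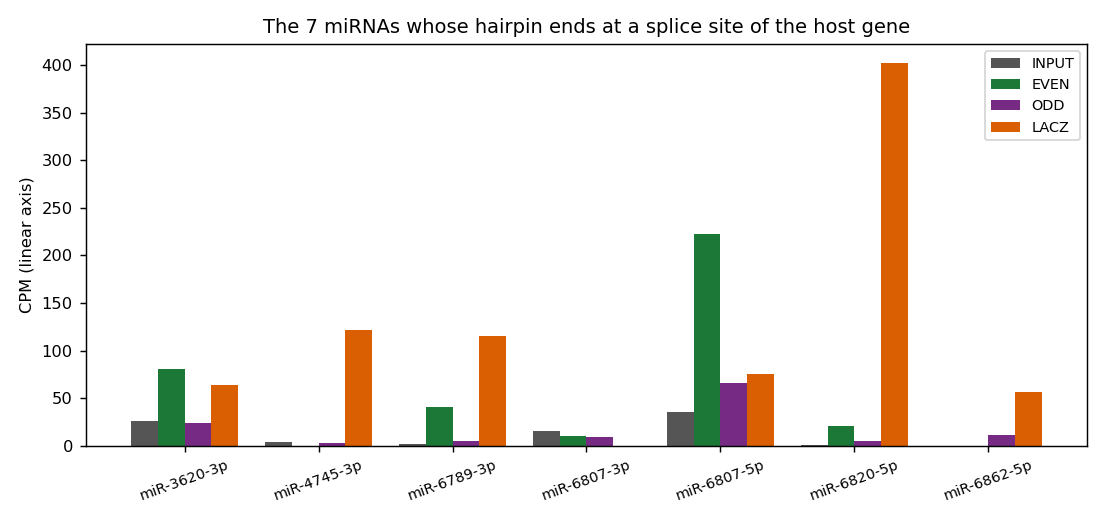
CPM, on a linear axis, of the 7 members whose hairpin ends within 5 nt of a splice site, in each library; bars are single libraries without replicates. miR-6820-5p in LacZ is the tallest bar at 402 CPM, and miR-6807-5p is tallest in EVEN at 222 CPM.

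Of the other hairpins with both arms among the members, miR-3074 gave 98.7% to 99.7% of its reads from the 5p arm in all 4 libraries. The 5p arm of miR-3613, read from an intron of the noncoding DLEU2, held 90.0% of reads in INPUT (87.4 to 92.2) and 91.4% in LacZ (81.0 to 97.1). For miR-3065 the values were 86.6% (81.6 to 90.7) and 81.2% (63.6 to 92.8). The intervals overlap in both, and EVEN and ODD held at most 8 reads of either hairpin.

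The 25 members that met the minimum in INPUT alone had to have under 20 reads in each pull-down. They summed to 406 CPM in INPUT and 222, 98.5 and 197 in EVEN, ODD and LacZ. The most abundant INPUT member after miR-3074-5p was miR-4521, with 2517 reads in INPUT and 22, 29 and 135 in EVEN, ODD and LacZ, or 842, 222, 68.0 and 317 CPM. All 3 pull-downs lay below INPUT, ODD the lowest. The LacZ share was 2.65-fold lower than INPUT (2.23 to 3.18), the EVEN share 3.79-fold (2.50 to 6.06) and the ODD share 12.4-fold (8.60 to 18.5). Next came miR-3613-5p with 573, 3, 5 and 53 reads, whose ODD share was 16.4-fold lower than INPUT (6.97 to 50.6).

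No pull-down read was found for 4 members, miR-3117-3p, miR-3677-5p, miR-3684 and miR-4676-3p, which had 20 to 31 reads in INPUT. At these depths the bound is at least 1.47-fold lower in LacZ for miR-3117-3p, and for EVEN no bound could be set because its floor of 30.3 CPM is above their INPUT levels of 6.69 to 10.4 CPM. Larger INPUT counts gave firmer bounds in ODD, at least 4.42-fold lower for miR-6844 (93, 0, 0 and 3 reads) and at least 3.90-fold for miR-4523. With 80, 0, 0 and 3 reads, miR-3144-3p was at least 3.81-fold lower in ODD.

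Against INPUT, 12 of 41 members tested were higher in EVEN (29.3%) and 17 lower (41.5%), beside 18.3% and 52.2% over all 464 miRNAs. The medians were -0.81 and -1.06 on the log2 scale. Most of the lower EVEN calls had no EVEN read, and most of those had no fold bound, given the EVEN floor of 30.3 CPM. With 2 EVEN reads each, miR-3074-3p and miR-4652-5p were called higher only through the constant added to each count. Their folds were 1.63 (0.191 to 6.33) and 1.89 (0.219 to 7.4). Asking that the interval exclude 1 left 9 members higher and 5 lower in EVEN, beside 14.7% and 34.7% over all 464. In ODD, 7 of 44 were higher (15.9%) and 25 lower (56.8%), beside 13.0% and 68.6% over all 468, with medians of -1.47 and -2.19. Scaling moved both splits: for EVEN to 10 and 23 under TMM scaling, 12 and 14 under median-of-ratios factors and 14 and 8 when centred; for ODD to 11 and 21, 14 and 19, and 21 and 9. The shares of all miRNAs higher and lower moved too, in EVEN to 15.5% and 60.8%, 19.2% and 48.9%, and 29.1% and 31.9% in that order. In ODD they became 18.8% and 57.7%, 23.1% and 50.6%, and 33.3% and 31.6%. The leading ODD members were those named above, miR-6735-5p at 304-fold (102 to 1491), miR-3177-3p at 266-fold (102 to 990) and miR-4741 at 23.7-fold (12.5 to 48.0). These 3 passed the read minimum through ODD alone, so they had to be high there. With the minimum asked of INPUT only, 4 of 41 members were higher in ODD (9.76%) and 25 lower (61.0%). Over all 461 miRNAs the shares were then 11.7% and 69.6%.

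The last group, 2 members, carry sequence of other abundant RNAs. The sequence of miR-4454, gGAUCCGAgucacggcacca, ends like a histidine tRNA, and its counts were 249 in INPUT and 0, 10 and 24 in EVEN, ODD and LacZ. EVEN was at least 2.75-fold lower than INPUT and ODD 3.55-fold lower (1.90 to 7.50). The copies of miR-6724-5p lie in ribosomal DNA on chromosome 21, and its sequence has the highest GC content of the 46, 91.3%. With 20, 7, 21 and 42 reads, it was higher than INPUT in each pull-down, 10.6-fold in EVEN (3.78 to 26.0), 7.36-fold in ODD (3.79 to 14.3) and 14.7-fold in LacZ (8.47 to 26.5). The opposite course of these 2 members is a description, and reads from tRNA or rRNA could not be told apart from miRNA reads here.

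No 2 of the 46 members with a sequence share a seed. One, miR-4676-3p, has the seed ACUGUUU of the lower-numbered miR-452-5p. The reverse complement of each seed was searched in the sense strand of exon 2, the sequence the circular RNA holds, apart from the back-splice junction. A match was found once for each of 6 of 46 members (13.0%), against 44 of 393 lower-numbered miRNAs (11.2%). The sites were TCAGTCA for miR-3136-5p, GGCCACT for miR-3677-5p, TCTCGGT for miR-4523, AGTCCCC for miR-4652-5p, GTTTGTT for miR-5688 and TTGGGGC for miR-5699-5p. Of 17610 windows of the same length, taken from the start of the longest coding transcript of each gene, 3.02% to 9.22% held the given site.

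None of these 6 reached 20 reads in EVEN, ODD or LacZ, so none was tested in the comparisons with LacZ and none could be called there. Their reads with the probe sets were few: miR-4652-5p had 2 in EVEN and 6 in ODD, miR-3136-5p had 1 in EVEN and none in ODD, miR-5688 had none and 2, and the others none in either. Of the members higher than LacZ with a probe set, those with a sequence, namely miR-3187-3p, miR-6807-5p, miR-7706, miR-3177-3p, miR-4741 and miR-3074-5p, had no match. That says only that these letters are not in the exon.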

How the data were processed

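Small RNA libraries of RD cells were analysed, 1 for INPUT and 3 for pull-downs. Per the labels' protocols, phenol and chloroform extraction was followed by QIAseq miRNA library preparation and single-end NovaSeq sequencing. Counts for each mature miRNA were deposited raw, as whole numbers. The deposited CPM values match count over library total to within 1.46e-11 CPM. GRCh38 is named in the submitters' processing notes. Trimming, aligner, annotation, multiple matches, strand and the kit's molecular identifiers: all not given in the sources used here. Counting amplified copies would make the intervals too narrow.

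Groups came from the sample titles, 1 library each. The log2 ratio of (count + 0.5) over library total was computed for all 2656 miRNAs, tested where 1 of the 2 libraries had 20 reads and called at 2-fold. Folds are ratios of shares with a 95% exact conditional Clopper-Pearson interval, against a floor of 3 counts where 1 library had 0. A share says nothing of absolute amounts. The members and lists were chosen with earlier results of these data known. Named miRNAs were the 5 most abundant of each library. The 5 highest and 5 lowest of each pull-down comparison with LacZ and of LacZ against INPUT were added, and 3 and 3 of the others. Also named were members past 2-fold with both probe sets (of those lower, the 5 with the largest smaller fold) and pairs of arms. Shared seeds, threshold neighbours and members known to overlap other RNA completed the rule. Outside these, miR-3611, miR-3176 and further seed-matched, opposite-strand and splice-site members were picked after their values were seen.

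Hairpins and hosts came from GENCODE 29, mature sequences from RefSeq. The alternatives tried were TMM scaling with edgeR 4.0.16, median-of-ratios scaling with DESeq2 1.42.0, library totals that leave out the 10 most abundant miRNAs, 5 added to each count, a minimum of 1 read and an interval that excludes 1. Python 3.11.15, pandas 2.3.3, numpy 2.4.6, scipy 1.17.1, matplotlib 3.10.9 and R 4.3.3 were used. The steps were tested on simulated data.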

Additional observations from a re-analysis of the deposited data

Results flagged for a closer look

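Of the 22 members tested with both exon 2 probe sets, 5 stood on opposite sides of LacZ (22.7%), beside 66 of all 284 miRNAs tested in both (23.2%). The difference between the probe sets was not tested, since each is 1 library, and both ratios share the LacZ library. The log2 ratio to LacZ with EVEN minus that with ODD was 3.34 for miR-7706 (1.37 and -1.97), 1.87 for miR-3605-3p (0.21 and -1.66), 1.80 for miR-3620-3p (0.41 and -1.39), 1.77 for miR-6807-5p (1.57 and -0.19) and -1.84 for miR-3074-5p (-0.81 and 1.03). With TMM and median-of-ratios factors the signs were the same for miR-7706, miR-3605-3p and miR-3074-5p, but the sizes moved. The ODD value went to -0.69 and -0.53 for miR-7706 and to -0.37 and -0.21 for miR-3605-3p, within 2-fold, and to 2.31 and 2.47 for miR-3074-5p. For miR-6807-5p the ODD value turned to 1.10 and 1.25, and for miR-3620-3p it was -0.10 and 0.06. The EVEN counts of miR-3605-3p and miR-3620-3p were 5 and 8 reads, and the EVEN folds over LacZ had intervals that include 1, 0.315 to 2.95 and 0.5 to 2.88.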

How the results depend on the processing

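No paired analysis was possible because each group has 1 library, and for the same reason no library could be left out. Of 124 alternative values for counts and shares, 71 stayed within 1.5 times or inside the counting interval; the others follow. With TMM and median-of-ratios factors, 8 and 8 members were lower in ODD against LacZ, 1 and 1 higher in EVEN against ODD, 11 and 14 higher in ODD against INPUT, and 2 and 2 higher and 7 and 6 lower with both probe sets; TMM also gave 22 lower in LacZ against INPUT. The shares over all miRNAs were 34.3% and 32%, 9.85% and 9.36%, 18.8% and 23.1%, and 51.8% for the last. For calls with both probe sets, the share over all was computed in the main setting only. Totals without the 10 most abundant miRNAs gave 11 lower in EVEN against INPUT, 12 higher in ODD against INPUT and 8 lower with both sets. Over all miRNAs the first 2 of these were 38.8% and 21%. With 5 added to each count, 3 were lower in EVEN against LacZ, 1 lower in LacZ against INPUT, 29 higher and 2 lower in EVEN against INPUT, 11 higher and 8 lower in ODD against INPUT, and 0 higher and 3 lower with both sets. Up to the calls with both sets, the shares over all were 30.1%, 19.6%, 41.8% and 21.3%, and 14.7% and 47.4%. A minimum of 1 read, which tests more miRNAs, gave 12 higher in EVEN against LacZ, 30 lower in ODD against LacZ, 14 higher and 5 lower in EVEN against ODD, 11 higher in ODD against INPUT and 5 higher with both sets. Among all miRNAs tested these calls, except the last, took 18.9%, 61.3%, 39.4% and 12.6%, and 34.5%. Asking that the interval exclude 1 left 7 lower in LacZ against INPUT and 5 lower in EVEN against INPUT, beside 28.4% and 34.7% over all. Centring on the median of all tested, chosen after seeing the data, gave 5 higher and 7 lower in EVEN against LacZ, 7 lower in ODD against LacZ, 8 lower in EVEN against INPUT, 21 higher and 9 lower in ODD against INPUT, and 2 higher and 5 lower with both sets. Except for both sets, the shares over all were 26.3% and 25.3%, 23.7%, 31.9%, and 33.3% and 31.6%. The minimum in the second library only, also added later, gave 2 higher in ODD against LacZ, 10 in LacZ against INPUT and 4 in ODD against INPUT, beside 8.1%, 15.6% and 11.7% over all. Shares of reads in INPUT, EVEN, ODD and LacZ were 0.585%, 1.06%, 1.61% and 0.941% with miR-3184, 0.603%, 0.635%, 1.14% and 0.815% with no read minimum, and 0.196%, 0.200%, 0.148% and 0.275% without miR-3074-5p.

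Of 230 alternative values for 46 named log2 ratios, 179 stayed within their counting interval, 46 moved and 5 changed sign. The 5 were all with 5 added to each count, where a library at 0 reads gains: in LacZ against INPUT miR-3684 came to 0.13, miR-3677-5p to 0.18 and miR-4676-3p to 0.49, and in EVEN against INPUT miR-5688 came to 0.15 and miR-6844 to 0.62. For other moved values the cause was not tested. EVEN, with 98950 reads, sets the depth limit: 22 members had no read there.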

Other observations

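By number, 26 members were miR-3000 to miR-3999, 12 in the 4000s, 2 in the 5000s, 9 in the 6000s and 1 at 7000 or above. The highest level lay in LacZ for 5 of the 9 in the 6000s and for 7 of the 26 in the 3000s, and in INPUT for 2 and 12. In the 6000s, miR-6125, miR-6789-3p, miR-6820-5p and miR-6862-5p passed the read minimum through LacZ alone and had to be high there. The 9 in the 6000s held 272 INPUT, 39 EVEN, 193 ODD and 361 LacZ reads; miR-6820-5p gave 171 of the LacZ reads and miR-6735-5p 130 of the ODD reads. By arm, 16 were 5p, 19 were 3p and 15 carried no arm in the name, with the highest level in LacZ for 4, 6 and 5 of them.

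Members with the highest level in INPUT had a median GC content of 43.5% over 21 sequences, those highest in EVEN 57.8% over 8, in ODD 66.7% over 3 and in LacZ 66.0% over 14. Among lower-numbered miRNAs the medians were 42.9%, 54.5%, 50.0% and 54.5%. The LacZ set holds the 6 members that passed the read minimum through LacZ alone. The ODD set holds miR-3177-3p and miR-4741, which passed through ODD alone. These members had to be high in that library, so the LacZ and ODD medians rest in part on the selection. Runs of 4 or more G were present in 15.2% of the 46 members and 5.60% of the 393.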
